A study of Mus musculus with 8 samples.

Results

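The 9 genes described here belong to imprinted domains of the mouse genome and were picked by name, through their Ensembl identifiers and with no threshold on their values, from the 28785 genes listed in at least 1 of 4 RNA-seq libraries. They are the long noncoding RNAs Meg3 (ENSMUSG00000021268), Rian (ENSMUSG00000097451) and Mirg (ENSMUSG00000097391) with the protein-coding Dlk1 (ENSMUSG00000040856) on chromosome 12, the long noncoding RNA Kcnq1ot1 (ENSMUSG00000101609) with Cdkn1c (ENSMUSG00000037664) on chromosome 7, the long noncoding RNA Airn (ENSMUSG00000078247) with Igf2r (ENSMUSG00000023830) on chromosome 17, and Igf2 (ENSMUSG00000048583) on chromosome 7. All libraries came from mouse embryonic fibroblasts, connective tissue cells cultured from embryos, with the genotype TSC2+/+ (both copies of the tuberous sclerosis gene intact) on the C57BL/6J strain. Control cells received no heat shock, and heat-shocked cells were held at 42 °C for 1 h and then at 37 °C for 3 h. From each culture condition 1 library was made of RNA in the pellet that remained after the cytoplasm and the soluble nuclear part were removed, called chromatin here, and 1 of cytoplasmic RNA. The labels' protocol also lists the excision of short RNA fragments from a gel before the libraries were made. With 1 library per group there is no replicate check and no test, and every value describes these libraries alone.

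An imprinted gene is expressed from only 1 of its parental copies. In several such domains a long noncoding RNA is made from one parental chromosome and protein-coding neighbours are silenced on that chromosome. Airn and Kcnq1ot1 are very long, mostly unspliced RNAs from the paternal chromosome that stay at the chromatin they come from, and they are known for silencing Igf2r and Cdkn1c, respectively. Meg3, Rian and Mirg come from the maternal chromosome and carry small nucleolar RNAs and microRNAs in their introns, while Dlk1, a surface protein that restrains fat cell formation, comes from the paternal chromosome of the same domain. Igf2 encodes a fetal growth factor, Igf2r the receptor that takes it up for degradation, and Cdkn1c an inhibitor of cyclin-dependent kinases. The strain is inbred, so the values sum both parental copies and say nothing of which copy was read.

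Several of these genes share their DNA with a neighbour, which bears on every value below. Positions are from RefSeq on GRCm38.p6. Igf2r (chr17:12682406-12769706, minus strand) and Airn (chr17:12741311-12859884, plus strand) overlap by 28.4 kb, which is 32.5% of the Igf2r span and 23.9% of the Airn span. Kcnq1ot1 (chr7:143213111-143296547, minus strand) lies wholly inside Kcnq1, a potassium channel gene, and a gap of 161.8 kb separates it from Cdkn1c (chr7:143458339-143461059). Dlk1 (chr12:109452485-109463336), Meg3 (chr12:109540996-109571729), Rian (chr12:109603945-109661716) and Mirg (chr12:109734981-109749458) are all on the plus strand, and Rtl1, a retrotransposon-derived gene, overlaps Meg3 by 6.8 kb. The Rian span holds 11 annotated small nucleolar RNA genes and 3 microRNA hairpins, the Mirg span 10 hairpins. Igf2 (chr7:142650768-142666816, minus strand) overlaps the annotated transcript Igf2os by 7.1 kb. How reads in shared stretches were assigned, and whether strand was used, is not given in the sources used here. Reads of such a gene and its partner therefore cannot be told apart.

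**Figure D1:**
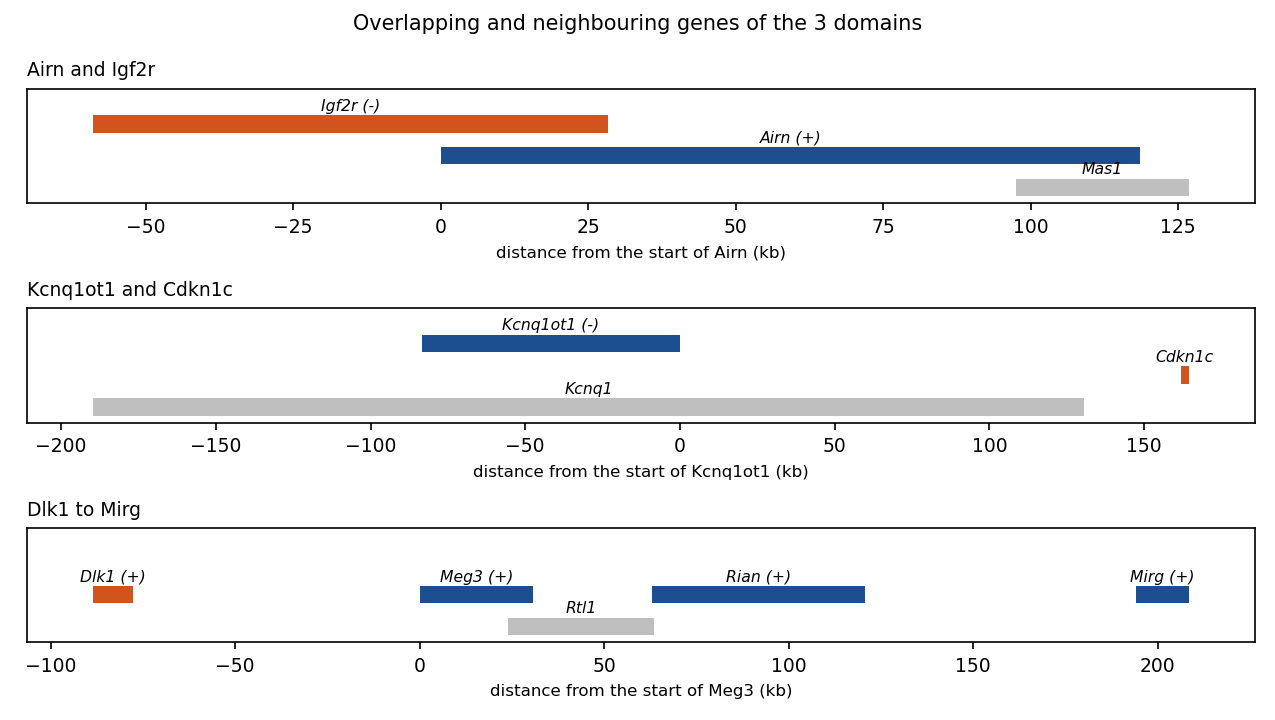
Annotated spans of the Airn, Kcnq1ot1 and Dlk1 to Mirg domains, with the x axis in kb from the start of Airn, Kcnq1ot1 or Meg3. Blue bars are long noncoding RNAs, orange bars their protein-coding partners and grey bars other overlapping genes, with the strand in brackets for the genes whose strand the sequence table gives, and Airn and Igf2r share 28.4 kb.

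The primary imprints are carried by methylation of CG pairs at control regions, which lie at the starts of Airn (inside Igf2r) and Kcnq1ot1 but away from the starts of the other genes here. Start windows of the 3 genes with the most reads are shown, that of Igf2r for comparison and not as a control region. Each is 300 bases around the RefSeq start, most of them before it, 5′ to 3′ on the gene's strand, with CG pairs in capitals. Windows were held for 8 of the 9 genes, 12 in all.
Kcnq1ot1 (chr7:143296498-143296797, minus strand): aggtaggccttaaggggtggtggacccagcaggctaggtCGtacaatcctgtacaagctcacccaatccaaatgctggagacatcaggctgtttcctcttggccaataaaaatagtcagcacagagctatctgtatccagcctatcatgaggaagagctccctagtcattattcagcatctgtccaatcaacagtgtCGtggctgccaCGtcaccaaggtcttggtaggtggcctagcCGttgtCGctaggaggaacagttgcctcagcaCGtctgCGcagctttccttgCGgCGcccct
Airn (chr17:12741061-12741360, plus strand): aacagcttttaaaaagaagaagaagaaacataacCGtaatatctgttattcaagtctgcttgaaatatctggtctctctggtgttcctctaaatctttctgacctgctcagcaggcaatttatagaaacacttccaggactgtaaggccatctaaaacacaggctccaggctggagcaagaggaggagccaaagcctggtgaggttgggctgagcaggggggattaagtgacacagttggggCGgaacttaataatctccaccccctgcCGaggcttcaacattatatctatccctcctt
Igf2r (chr17:12769657-12769956, minus strand): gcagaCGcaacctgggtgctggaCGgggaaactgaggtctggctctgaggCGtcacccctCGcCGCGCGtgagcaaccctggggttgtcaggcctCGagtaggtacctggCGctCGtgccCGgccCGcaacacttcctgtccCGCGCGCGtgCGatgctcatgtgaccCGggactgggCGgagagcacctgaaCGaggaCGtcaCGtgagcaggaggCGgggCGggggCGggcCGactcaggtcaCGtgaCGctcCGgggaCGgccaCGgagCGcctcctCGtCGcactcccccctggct
The Igf2r window held 34 CG pairs, more than 92.3% of all 32851 windows in the table, whose median was 7. The Kcnq1ot1 window held 9 and the Airn window 3. A search of both strands for GAANNTTC, the core of the element bound by heat shock factors, found it in 1 of the 12 windows, that of Rian, against 7.86% of all windows. TGCCGC, the motif of the imprint-keeping protein ZFP57, was found in 2, the first of the Meg3 windows and 1 of the Igf2 windows, against 11.6% of all. A match is a run of letters and not a binding site. The Rian window is printed with the GAANNTTC match in capitals.
Rian (chr12:109603695-109603994, plus strand): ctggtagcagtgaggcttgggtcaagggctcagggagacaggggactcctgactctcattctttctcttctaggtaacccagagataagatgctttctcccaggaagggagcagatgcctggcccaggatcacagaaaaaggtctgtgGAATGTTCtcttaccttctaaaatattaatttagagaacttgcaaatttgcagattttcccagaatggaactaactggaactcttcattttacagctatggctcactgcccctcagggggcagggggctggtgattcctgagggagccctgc

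Totals were 18364642 reads in chromatin without heat shock, 19536459 in chromatin after it, 8292312 in cytoplasm without and 11131382 in cytoplasm after. Levels are RPKM, reads scaled to the gene's whole span in kilobases and to the library total, and the whole reads behind each value were recovered. The share of reads in the 10 most-read genes was 21.8% in unstressed chromatin, 32.6% in chromatin after heat shock, and 75.9% and 79.8% in the cytoplasmic pair. Since RPKM is relative to the total, that share bears on all comparisons between fractions, and fewer cells with an RNA cannot be told apart from less of it per cell. The files list no gene names, so markers of fibroblasts or other cells were not analysed here. Intervals are exact 95% intervals on reads. They cover counting error only.

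Kcnq1ot1 and Airn were by far the most abundant of the 9 in chromatin, and both were much lower in cytoplasm. Kcnq1ot1 had 8217 reads (5.30 RPKM) in chromatin without heat shock, 7010 reads (4.25 RPKM) in chromatin after it, 204 reads (0.291 RPKM) in cytoplasm without it and 176 reads (0.187 RPKM) in cytoplasm after it. By reads it ranked 246 among the 22804 genes listed in unstressed chromatin and 248 among 26129 after heat shock. The intervals of the chromatin libraries (5.19 to 5.42 and 4.15 to 4.35 RPKM) do not meet each other or those of cytoplasm.

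Airn had 7956 reads (3.65 RPKM), 4636 reads (2.00 RPKM), 210 reads (0.213 RPKM) and 107 reads (0.0809 RPKM) in the same order. It was highest in unstressed chromatin and lower after heat shock in both fractions. The 2 cytoplasmic intervals, 0.185 to 0.244 and 0.0663 to 0.0978 RPKM, do not overlap.

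Igf2r, the gene that Airn silences, had 1450 reads (0.905 RPKM) and 1691 reads (0.992 RPKM) in chromatin, and 213 reads (0.294 RPKM) and 210 reads (0.216 RPKM) in cytoplasm. Its level per whole span was below those of Airn and Kcnq1ot1 in both chromatin libraries. Whether reads in introns were counted is not given, so this order may not hold per length of the finished RNA. In unstressed cytoplasm Igf2r (0.256 to 0.337 RPKM) and Kcnq1ot1 (0.253 to 0.334 RPKM) had overlapping intervals, and both lay above Airn.

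The other 6 genes had at most 81 reads in any library. Igf2 had 2 and 3 reads in chromatin (0.00678 and 0.00957 RPKM) and 13 and 81 reads in cytoplasm (0.0977 and 0.453 RPKM). Its cytoplasmic level per whole span after heat shock, 0.360 to 0.563 RPKM, was the highest of the 9 genes in that library, above Igf2r at 0.188 to 0.248 RPKM. By reads Igf2 was below Igf2r (210), Kcnq1ot1 (176) and Airn (107) there, whose spans are longer.

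Meg3 had 12 and 9 reads in chromatin without and after heat shock (0.0213 and 0.0150 RPKM) and 1 and 13 reads in cytoplasm (0.00392 and 0.0380 RPKM). Rian had 13 and 23 reads in chromatin (0.0123 and 0.0204 RPKM) and 8 and 56 reads in cytoplasm (0.0167 and 0.0871 RPKM). Mirg had no read in unstressed chromatin, which allows up to 0.00829 RPKM (the worth of 3 reads), then 27 reads after heat shock (0.0702 RPKM), and 4 and 42 reads in cytoplasm (0.0245 and 0.192 RPKM). On the deposited scale the highest level of all 3 was in cytoplasm after heat shock. In that library the order was Mirg, Rian and Meg3. The intervals of Mirg (0.138 to 0.259 RPKM) and Rian (0.0658 to 0.113 RPKM) do not overlap, while those of Rian and Meg3 (0.0202 to 0.0650 RPKM) come close without meeting. This Meg3 interval overlaps that of Meg3 in unstressed chromatin (0.0110 to 0.0371 RPKM). In unstressed chromatin, Meg3, Rian and Igf2 had overlapping intervals.

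Dlk1 had 1 read in chromatin after heat shock and 1 in unstressed cytoplasm, and none in the other 2 libraries. Cdkn1c had 1 read, in cytoplasm after heat shock. Libraries without a read allow Dlk1 levels of up to 0.0155 RPKM (chromatin, no heat shock) and 0.0256 RPKM (cytoplasm, heat shock), and Cdkn1c levels of up to 0.0605, 0.0569 and 0.134 RPKM (chromatin without and after heat shock, cytoplasm without). No ratio was formed for these 2 genes, and no change in them was detectable at this depth.

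**Figure D2:**
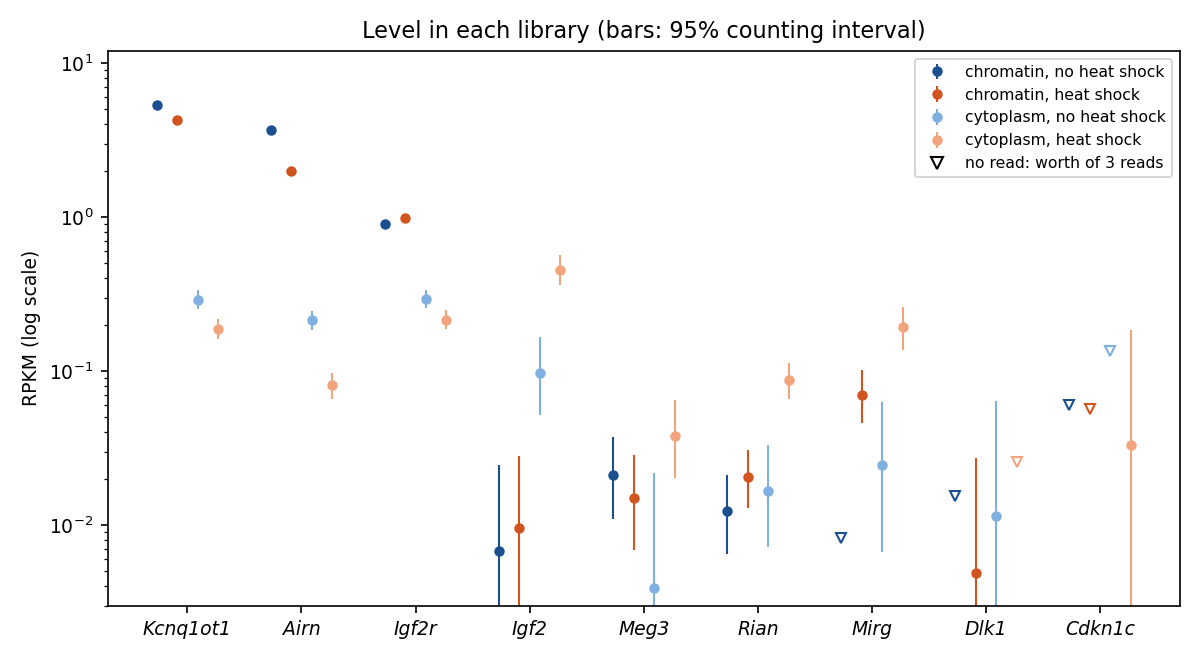
RPKM of each gene (log y axis) in the 4 libraries, 1 point per library, with bars for the 95% counting interval and open triangles at the worth of 3 reads where a library had no read (some lower bars run off the axis). Kcnq1ot1 and Airn stand at 2.00 to 5.30 RPKM in chromatin, while Igf2 and Mirg are highest in cytoplasm after heat shock.

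Chromatin was compared with cytoplasm in each condition to see which of these RNAs were held in the chromatin pellet. The 2 silencing RNAs of chromosomes 7 and 17 were far on the chromatin side. In unstressed cells Kcnq1ot1 was 18.2-fold higher in chromatin (15.8 to 21.0) and Airn 17.1-fold (14.9 to 19.7), and after heat shock the folds were 22.7 (19.5 to 26.5) and 24.7 (20.4 to 30.2). Igf2r was 3.07-fold (2.66 to 3.57) and 4.59-fold (3.97 to 5.32) higher in chromatin on the deposited scale, but with the median gene set to 0 its log2 ratio was -0.17 without and 0.08 after heat shock, and leaving the 10 genes with the highest share of reads out of the scale gave -0.05 and 0.50. Of all genes counted, 44.6% had a lower ratio than Igf2r without heat shock and 51.8% after it.

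Being higher in chromatin was the rule in these libraries, so the position of each gene among all genes matters more than the 2-fold mark. Genes with at least 20 reads over the 2 libraries compared were counted. In unstressed cells 3 of the 4 members counted (Kcnq1ot1, Airn and Igf2r) were at least 2-fold higher in chromatin, against 69.7% of 12902 genes, and 0 were at least 2-fold lower, against 7.01%. Kcnq1ot1 exceeded 95.2% and Airn 94.6% of those genes. Genes with spans of 50 to 150 kb, which include both RNAs, lay farther toward chromatin than all genes. Their median log2 ratio was 2.50, against 1.82 for all genes, both with a library without a read set to 3 reads. Of these 2553 genes, 133 stood above Kcnq1ot1 (4.18) and 153 above Airn (4.10). After heat shock 85 of 2967 genes of these spans stood above Kcnq1ot1 and 67 above Airn. On all 3 other scales both RNAs remained on the chromatin side, from 2.30 for Airn to 5.88 for Airn on the log2 scale.

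Of the RNAs of chromosome 12 and Igf2, Rian was the only one without heat shock with enough reads to count, and its ratio of 0.734 had an interval that includes 1 (0.282 to 2.04) and its log2 value ran from -2.24 with the median gene set to 0 to 1.22 with equal RPKM sums. Meg3, not counted, had 12 chromatin reads against 1 (5.42-fold, 0.802 to 232). Mirg, not counted either, had 0 against 4. The 3 RNAs summed to 25 reads in chromatin and 13 in cytoplasm, a ratio of 0.868 whose interval includes 1 (0.428 to 1.85). Igf2, likewise below the minimum, had 2 against 13, a 14.4-fold lower level in chromatin (3.26 to 131).

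After heat shock all 4 could be counted and all were at least 2-fold lower in chromatin than in cytoplasm, against 6.22% of 14961 genes. Among genes with 20 to 100 reads, the range these 4 fall in, the share was 10.1%. Igf2 reached the minimum only through its 81 cytoplasmic reads, with 3 in chromatin, so its place in this count is partly set by that minimum. Meg3 reached it only with both libraries together (9 and 13 reads). Igf2 was 47.4-fold lower (15.6 to 235), a ratio below those of 99.7% of genes, and the minimum of reads partly sets this place too. Rian was 4.27-fold lower (2.59 to 7.28), Mirg 2.73-fold (1.64 to 4.60) and Meg3 2.54-fold (1.00 to 6.72). Reads of the 3 RNAs together were 59 in chromatin and 111 in cytoplasm, a 3.30-fold lower level (2.39 to 4.61). When each library was scaled to the same RPKM sum, Meg3 and Mirg came to log2 ratios of -0.09 and -0.20 and Rian to -0.84, so that only Igf2 (-4.31) was still past 2-fold. Kcnq1ot1, Airn and Igf2r made up the 3 of 7 counted members at least 2-fold higher in chromatin, against 75.2% of genes. The median log2 ratio of the counted members was 2.86 for 4 members without heat shock and -1.34 for 7 after it, against 1.79 and 2.12 for all genes with reads in both libraries. The members' medians are over different sets and are not comparable with each other, since Meg3, Mirg and Igf2 reached the minimum only after heat shock. Of the 4 members counted in both conditions, Kcnq1ot1, Airn and Igf2r had higher ratios after heat shock and Rian a lower one.

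**Figure D3:**
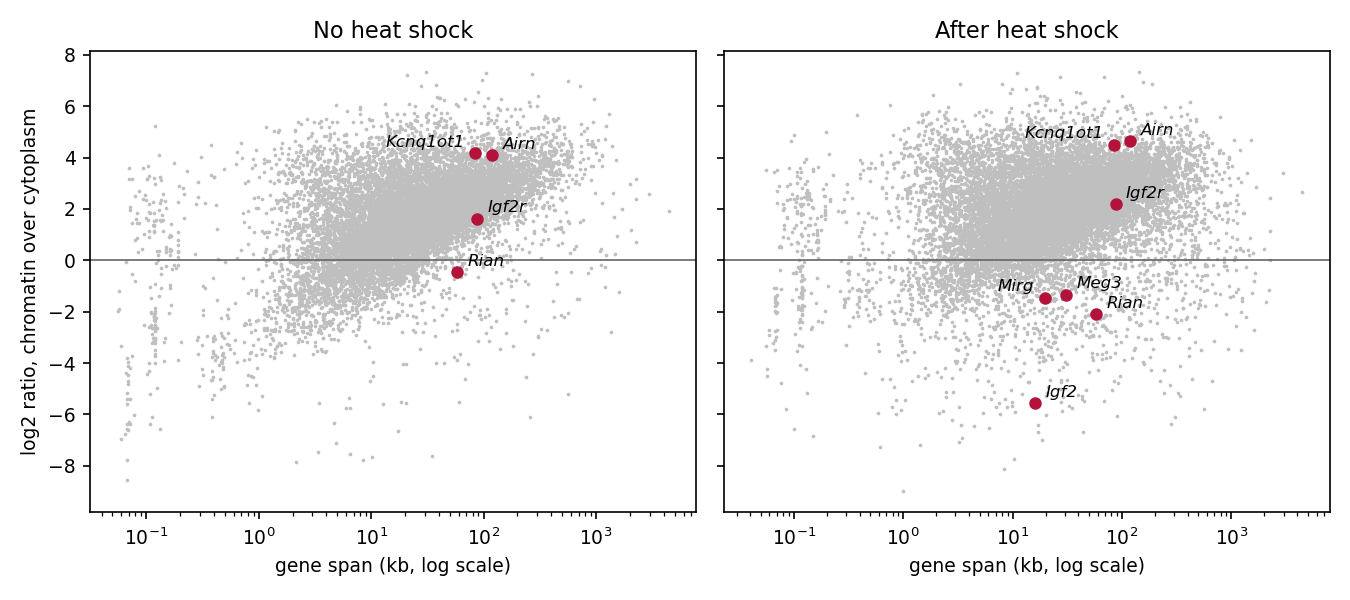
Log2 ratio of chromatin over cytoplasm (y axis) against gene span in kb (log x axis) for every gene counted with reads in both libraries (grey) and for the counted members (red), without heat shock on the left and after it on the right. Kcnq1ot1 and Airn lie in the upper part of the cloud at 4.10 to 4.63, Igf2r lies inside it, and Rian, Mirg, Meg3 and Igf2 below 0.

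Heat shock was then compared with no heat shock within each fraction. In chromatin Airn was 1.83-fold lower after heat shock (1.76 to 1.89) and Kcnq1ot1 1.25-fold lower (1.21 to 1.29), while Igf2r was 1.10-fold higher (1.02 to 1.18). None of these reached 2-fold. Of 15613 genes, 20.1% had a lower ratio than Airn and 37.5% a lower one than Kcnq1ot1. Among 3007 genes with spans of 50 to 150 kb, 2310 had a higher ratio than Airn and 1673 a higher one than Kcnq1ot1. The direction of Airn and Kcnq1ot1 was the same on the 3 other scales (log2 -0.65 to -1.51 and -0.10 to -0.96), while Igf2r turned to -0.51 with equal RPKM sums, and Airn then passed 2-fold.

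Mirg was the 1 of 6 counted members at least 2-fold higher in chromatin after heat shock, with 27 reads against none, at least 8.46-fold when none is set to the worth of 3 reads and the counting error of the 27 is left aside. Of 15613 genes, 22.0% passed this mark upward, and of the genes with 20 to 100 reads 41.8%, so such a difference was common at this depth. A gene with no read without heat shock and at least 20 after it passes 2-fold by the counting rule itself. The call of Mirg was thus fixed by the minimum of reads. No member was at least 2-fold lower, against 17.2% of genes. Rian had a ratio of 1.66 (0.808 to 3.57) and Meg3 of 0.705 (0.262 to 1.82), and both intervals span 1. Igf2, with 3 reads against 2, gave no ratio. The median log2 ratio was -0.09 over the 6 members, with Mirg at its bound, and 0.01 over all genes with reads in both libraries.

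In cytoplasm the RNAs of chromosome 12 and Igf2 were higher after heat shock, and Airn, Kcnq1ot1 and Igf2r lower, though Igf2r came to a log2 ratio of 0.13 with the median gene set to 0. Rian was 5.21-fold higher after heat shock (2.47 to 12.7), Mirg 7.82-fold (2.84 to 30.0) and Igf2 4.64-fold (2.57 to 9.09). These were 3 of 6 counted members at least 2-fold higher, against 9.91% of 10805 genes and 17.2% of those with 20 to 100 reads. All 3 reached the minimum of reads only through the heat-shocked library, so their count among the members is partly set by that minimum, and with a minimum of 100 reads no member was higher. Their ratios exceeded those of 95.4%, 97.0% and 94.7% of all genes counted, places that the same minimum partly sets and that add no separate support. Meg3 had too few reads to count, 13 against 1 (9.68-fold, 1.45 to 412). The 3 RNAs of chromosome 12 summed to 111 reads after heat shock against 13, a 6.36-fold higher level (3.57 to 12.3), and to 59 against 25 in chromatin (2.22-fold, 1.37 to 3.70). The chromatin sum hides unlike members, with Mirg at 27 reads against 0, Rian at 23 against 13 and Meg3 at 9 against 12. It therefore does not show a shared rise in chromatin. The lists of genes with any read also differed in length, with 16818 genes in cytoplasm without and 21167 after heat shock. The part of that difference in these results was not tested.

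Airn was the 1 member at least 2-fold lower in cytoplasm after heat shock, against 21.9% of genes. It was 2.63-fold lower (2.08 to 3.36), a ratio below those of 91.6% of genes. Among 2286 genes with spans of 50 to 150 kb, 2118 had a higher ratio than Airn. Kcnq1ot1 was 1.56-fold lower (1.27 to 1.91) and Igf2r 1.36-fold lower (1.12 to 1.66), both near the median gene (log2 -0.58). With that median set to 0, Airn came to -0.82, Kcnq1ot1 to -0.06 and Igf2r to 0.13. The median log2 ratio of the 6 counted members was 0.88.

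**Figure D4:**
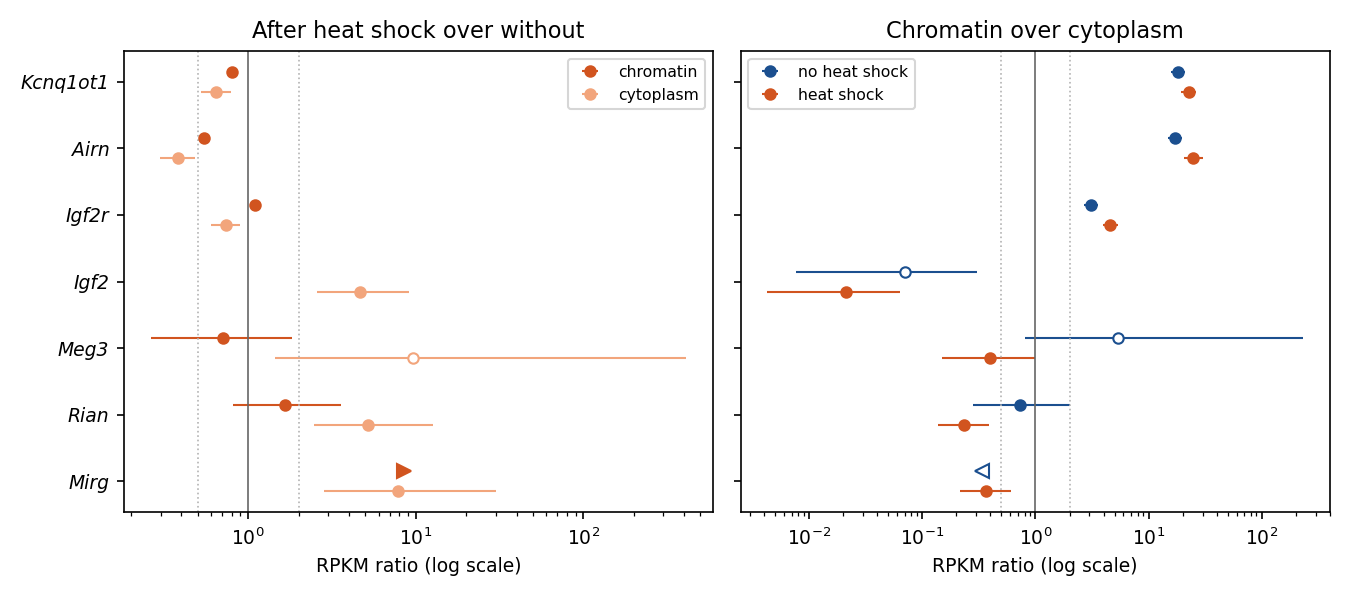
RPKM ratios on log x axes, after heat shock over without it (left) and chromatin over cytoplasm (right), with 95% counting intervals. Open symbols mark pairs with under 20 reads, triangles ratios with the worth of 3 reads in place of none and dotted lines 2-fold, and in cytoplasm Airn lies below 0.5 while Rian, Mirg and Igf2 lie above 2.

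Ratios of one member to another within a library do not depend on the library total or on the scale chosen between libraries. Per whole span, Airn over Igf2r was 4.03 (3.81 to 4.26) in unstressed chromatin and 2.01 (1.90 to 2.13) after heat shock. In cytoplasm it was 0.724 (0.596 to 0.880) and 0.374 (0.294 to 0.475). Airn relative to Igf2r was thus lower after heat shock by a factor of 2.00 in chromatin (1.85 to 2.17) and 1.93 in cytoplasm (1.42 to 2.65). It was higher in chromatin than in cytoplasm by a factor of 5.57 (4.54 to 6.82) without heat shock and 5.38 (4.21 to 6.90) after it. Airn shares 28.4 kb with Igf2r and 21.0 kb with Mas1, and whether reads there were counted for one gene, both or neither is not known here.

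Kcnq1ot1 over Airn, the 2 silencing RNAs, was 1.45 (1.41 to 1.50) and 2.13 (2.05 to 2.21) in chromatin and 1.37 (1.12 to 1.67) and 2.32 (1.81 to 2.97) in cytoplasm. It was therefore higher after heat shock by a factor of 1.46 (1.39 to 1.54) in chromatin and 1.69 (1.23 to 2.33) in cytoplasm. Between the fractions the same ratio differed by a factor of 1.06 (0.870 to 1.30) without heat shock and 0.919 (0.714 to 1.18) after it, intervals that include 1. Kcnq1ot1 over Igf2r was lower after heat shock by a factor of 1.37 in chromatin (1.26 to 1.48). In cytoplasm the factor was 1.14, with an interval of 0.858 to 1.52.

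Igf2 over its receptor Igf2r was 0.332 (0.174 to 0.580) in cytoplasm without heat shock and 2.10 (1.60 to 2.72) after it, higher by a factor of 6.32 (3.36 to 12.7). In chromatin it was 0.00750 (0.000907 to 0.0271) and 0.00964 (0.00199 to 0.0282). These ratios are per whole span, 16051 bp for Igf2 and 87259 bp for Igf2r. By reads Igf2 was below Igf2r in cytoplasm after heat shock too, 81 against 210. Mirg over Rian was 2.20 (1.44 to 3.34) in cytoplasm after heat shock and 3.44 (1.90 to 6.29) in chromatin after it.

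**Figure D5:**
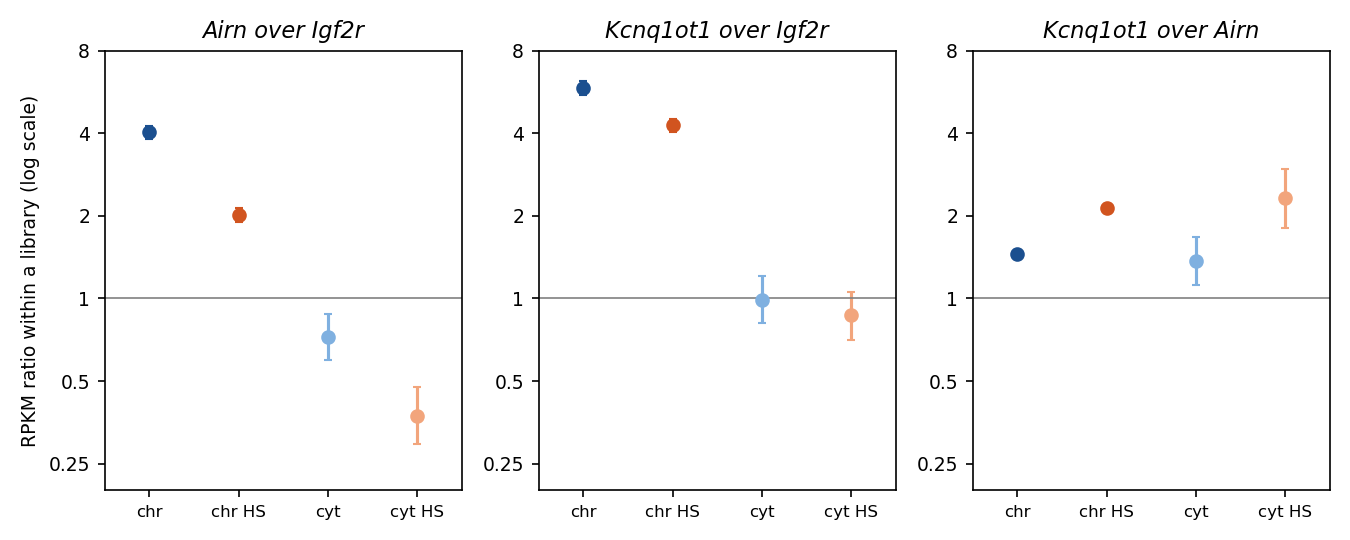
RPKM of one gene over that of another within each library (log y axes), with 95% counting intervals, for chromatin (chr) and cytoplasm (cyt) without and after heat shock (HS). Airn over Igf2r is 4.03 and 2.01 in chromatin and 0.724 and 0.374 in cytoplasm, and Kcnq1ot1 over Airn is higher after heat shock in both fractions.

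The heat shock ratio in chromatin was set against that in cytoplasm for genes with reads in all 4 libraries and at least 20 in each fraction. Rian was the 1 of 4 counted members past a log2 difference of 1, with a value of -1.65 (-3.30 to -0.04), that is, a higher ratio in cytoplasm, against 9.98% of 10496 genes in that direction. With 8 cytoplasmic reads without and 56 after heat shock, Rian reached the minimum there only through the heat-shocked library. Its call is thus partly set by that minimum. In the other direction 25.1% of genes and 0 members passed. The differences were 0.32 for Kcnq1ot1 (0.02 to 0.62), 0.53 for Airn (0.18 to 0.88) and 0.58 for Igf2r (0.28 to 0.88), beside a median of 0.44 over all genes. Kcnq1ot1 turned to -0.09 with equal RPKM sums and -0.12 with the median set to 0, and Airn to -0.05 with a pseudocount of 0.1 RPKM. Meg3, with 14 cytoplasmic reads, was not counted and had a difference of -3.78 (-9.30 to -0.50). Igf2, with 5 chromatin reads, was not counted either and had a difference of -1.72, with an interval that includes 0 (-4.96 to 2.02).

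Genes with a similar pattern over the 4 libraries were sought among 3663 genes with at least 100 reads in each, by the distance between log2 RPKM values after each gene was centred on its own mean. The gene nearest to Kcnq1ot1 was ENSMUSG00000074415, with a span of 241376 bp and a distance of 0.02. Its RPKM values were 1.51 and 1.20 in chromatin and 0.0839 and 0.0536 in cytoplasm. The gene nearest to Airn was ENSMUSG00000031561, with a span of 616345 bp, a distance of 0.15 and RPKM values of 2.78 and 1.40 in chromatin and 0.169 and 0.0652 in cytoplasm. Both patterns were thus met in at least 1 other long gene.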

How the data were processed

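Per the labels, the authors deposited 1 RPKM value per Ensembl gene for each of 4 RNA-seq libraries, listing genes with reads only. Per the submitters' processing notes, cutadapt, STAR and the build GRCm38 were used. No counter, annotation or strand setting is given in the sources used here. The other 4 samples of the series (m6A immunoprecipitations and inputs) were not analysed here.

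Library totals were recovered from the RPKM values as greatest common divisors of whole-number inverses (tolerance 0.002). With these totals, spans and reads were taken as the smallest whole numbers that give a gene's values, with 0 genes above a relative error of 1e-12. Reads that share a factor with the span come out too small. Recovered reads summed to 98.4% to 99.7% of the totals, and the procedure was tested on simulated data. For 7 of the 9 members the recovered span lay within 1.15% of the RefSeq span of the named gene. The exceptions were Dlk1 (3.11%) and Mirg (36.0%), and names rest on the identifiers. Of the RefSeq table's genes 0 carry an Ensembl identifier, so planned lists of other imprinted genes, cell type markers and small RNAs could not be matched and have no result.

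Levels were divided as deposited, with nothing added. Single ratios have exact Clopper-Pearson intervals, and ratios of ratios conditional odds ratio intervals. A library with no read was set to 3 reads. Genes with at least 20 reads over the 2 libraries were counted, and those at least 2-fold apart were called. The named genes are the 9 members and, by rule, the gene nearest in pattern, given for 2 members by identifier. Alternatives were 2 pseudocounts, 2 read minimums, 3 scales and a 3-fold mark. The members have no threshold on values, but they and the lists were chosen with earlier results of these data known. Python 3.11.15, numpy 2.4.6, pandas 2.3.3, scipy 1.17.1 and matplotlib 3.10.9 were used.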

Additional observations from a re-analysis of the deposited data

Results flagged for a closer look

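Meg3 and Igf2r had heat shock ratios on opposite sides of 1 in the 2 fractions. For Meg3 the ratio was 0.705 in chromatin, with an interval that spans 1, and 9.68 in cytoplasm, where it rests on 1 read without heat shock. For Igf2r it was 1.10 in chromatin and 0.734 in cytoplasm. These directions depend on the scale, since the log2 value was -0.51 in chromatin with equal RPKM sums and 0.13 in cytoplasm with the median gene set to 0. With 1 library per group these differences between fractions were not tested.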

How the results depend on the processing

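Counts of members at least 2-fold apart depended on how low values were treated. In the heat shock comparison in chromatin the count was 1 (Mirg), and 0 with a pseudocount of 1 RPKM, a pseudocount of 0.1 RPKM, a minimum of 100 reads or reads required in both libraries, and 3 with equal RPKM sums (Mirg higher, Meg3 and Airn lower). In cytoplasm it was 4, and 0, 2 and 1 under the first 3 of these settings. For chromatin against cytoplasm it was 3 without heat shock, and 5 with no minimum of reads, and 7 after heat shock, and 2 with a pseudocount of 1 RPKM, 4 with 0.1 RPKM, 3 with a minimum of 100 reads and 4 with equal RPKM sums. Without heat shock the median set to 0, or the 10 highest genes left out, also gave 3, but with Kcnq1ot1 and Airn higher and Rian lower. Igf2r was then not called. Equal RPKM sums gave 4 there, with Rian among those higher. The difference between fractions gave 1 member, 0 with either pseudocount or a minimum of 100 reads, and 3 with no minimum (Meg3, Rian and Igf2). A pseudocount of 1 RPKM exceeds every level of the 6 low members, and the minimum of 100 reads leaves 3 members.

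Igf2r, at 1.62 (log2) toward chromatin without heat shock, turned to -0.17 with the median set to 0 and to -0.05 without the 10 highest genes in the scale. Of 159 values of single members under the alternatives, 90 stayed within the counting interval, 67 moved outside it without such a reversal and 2, those of Igf2r just given, turned from at least 2-fold to the other side. Changes of sign from any value, however small, numbered 10, in 6 of the pairs of gene and comparison.

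With genes read in only 1 library kept in at their bound (the medians given above for genes with reads in both libraries leave them out), the median log2 ratio of all genes, 0.02 in the chromatin heat shock comparison, came to -0.62 with equal RPKM sums and 0.24 without the 10 highest genes. In cytoplasm -0.58 came to -0.80 and -0.32. Toward chromatin 1.82 came to 3.49 and 0.16 without heat shock, and 2.13 to 3.38 and 0.43 after it.

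Counts over all genes moved by over 1.5 times as well. Genes at least 2-fold higher after heat shock numbered 3428 in chromatin (499 to 5357 over the alternatives) and 1071 in cytoplasm (195 to 2535), and those lower 2687 (220 to 5606) and 2365 (139 to 3817). Higher in chromatin than in cytoplasm were 8994 (1565 to 11755) without and 11248 (2184 to 13425) after heat shock, and lower 905 (251 to 3416) and 931 (329 to 4014). For the difference between fractions they were 2633 (737 to 4040) and 1048 (202 to 2152). The higher share of called genes was 56.1% in the chromatin heat shock comparison, 28.5% with equal RPKM sums and 67.4% without the 10 highest genes, and in cytoplasm 31.2%, 20.2% and 49.1%, and 73.3% with the median set to 0. Toward chromatin it was 90.9% and 92.4%, and 47.6% and 45.9% with the median set to 0. For the difference it was 71.5%, and 43.2% with equal RPKM sums. No paired analysis was possible because each group has 1 library.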
